A study of Mus musculus with 12 samples.

Results

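The platelet-derived growth factor (PDGF) genes were followed in mammary epithelial spheroids exposed to GDF11 or TGFB1. The members were the genes Pdgfa, Pdgfb, Pdgfc, Pdgfra and Pdgfrb, 5 of the 18138 gene symbols of the array table. They were read by every probe with one of these symbols, 6 of 25697: 1 for Pdgfa, 2 for Pdgfb, 1 for Pdgfc and 1 for each receptor. Each probe was read on its own. NMuMG is an established epithelial line from normal mouse mammary gland, and no genetic change was made to it in any group. Cells were plated at 5000 per well on top of Matrigel, a basement membrane extract, fed again on day 4 and used after 6 days. All groups then spent 4 h in serum-free medium: without a ligand, with 250 ng/mL GDF11, or with 50 ng/mL TGFB1. Each group held 4 biological replicates, each the pooled RNA of 2 wells of this single line, hybridized to 1 Illumina beadchip array.

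PDGFs are secreted dimers that signal through the receptor tyrosine kinases PDGFRα and PDGFRβ. Pdgfa and Pdgfb encode the classical A and B chains, which are cleaved inside the cell and released active. Pdgfc encodes a chain with a CUB domain that is removed outside the cell before it can bind a receptor. PDGF-AA and PDGF-CC act mainly through PDGFRα, whereas PDGF-BB binds both receptors. In epithelial organs the ligands are known mostly as signals from epithelium to the mesenchymal cells that carry the receptors. TGFB1 and GDF11 are TGF-beta family ligands that signal through SMAD2 and SMAD3.

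A probe counted as detected where its detection p, the chance of such a signal among negative control beads, was under 0.05. Detection reached 41.2% to 49.6% of all probes per array. Mean raw intensity, in scanner units, split the arrays into 4 dim arrays (149 to 165) and 8 bright arrays (255 to 310). Serum-free replicates 1, 2 and 4 and GDF11 replicate 1 were dim, and serum-free 3, GDF11 2, 3 and 4 and every TGFB1 array were bright. Brightness therefore moved with the groups. The mean over the 4 arrays was 189 ± 62.8 (SD) without a ligand. It was 251 ± 68.5 under GDF11 (exact permutation test against no ligand, two-sided, p = 0.286) and 298 ± 7.53 under TGFB1 (p = 0.0286 by the same exact test). After normalization, 5867 of the 12680 tested probes (46.3%) still differed between dim and bright arrays in a limma model that held the groups, at an adjusted p under 0.05. Values from a model with a term for dim or bright array, the brightness term, are given beside most PDGF results and some of those of other genes. Some calls of other genes that begin or end with the term are not listed by gene. Fits to bright arrays alone hold 1 serum-free array and fits to dim arrays alone 1 GDF11 array. There the lone array is assumed to vary like the other groups, so the p-values rest on the spread of those groups.

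The labelled cell type was checked against its markers. The luminal keratin genes Krt8, Krt18 and Krt19 and the epithelial cadherin gene Cdh1 were detected on all 12 arrays; Epcam was not analysed here. Of the 5 basal markers, Krt14 and Acta2 were detected on 10 arrays each and Krt5, Trp63 and Myh11 on 0. No fibroblast marker was detected on 4 or more arrays: Col1a1 was detected on 1 array and Col1a2, Col3a1, Dcn, Lum and Thy1 on 0. Of 6 markers of mural cells, Cspg4 was detected on 9 arrays, Rgs5 on 0, and the other 4 on 1 or 2. No marker of endothelium (5 genes), leukocytes (5) or adipocytes (4) was detected on 4 or more arrays. Of 4 platelet and megakaryocyte markers, Ppbp was detected on 11 arrays, with raw intensity of at most 138. Pf4 was detected on 2 arrays, Itga2b on 1 and Gp9 on 0. The summed raw intensity of the 4 luminal markers ran from 4737 to 26171 in serum-free medium, from 6402 to 30140 with GDF11 and from 28283 to 31640 with TGFB1. On the normalized scale limma called Krt8, Krt18 and Cdh1 higher with TGFB1 (1.14, 1.25 and 0.91) and Krt19 lower (−0.60), and of these only Krt19 was called with the brightness term (−0.61). Basal Krt14 was also called higher with TGFB1 (0.96, or 1.39 with the term), and with GDF11 only with the term (0.48, or 0.77). The raw sum of the 6 fibroblast markers, near background, ran from 477 to 525, from 474 to 551 and from 528 to 546. The part of these sums and of array brightness in the PDGF results was not tested beyond the brightness values below. These are whole-spheroid RNA samples, so a change in the number of cells of a type and a change in RNA per cell cannot be told apart. Genes to follow the stimulus were chosen with earlier results of these data known, so their rises describe the response and are no independent check. Lmcd1 rose by 4.07 ± 0.17 with GDF11 and by 4.5 ± 0.17 with TGFB1. Pmepa1, a feedback inhibitor of TGF-beta signalling, rose by 1.85 ± 0.21 and 1.87 ± 0.21, with detection on 1 of 4 serum-free arrays. The values of Lmcd1 and Pmepa1 are log2 changes ± SE, with limma adjusted p from 1.1e-09 to 9.04e-05. Pmepa1 passed the detection filter through the ligand groups, where it is high, so its call is no support for its rise. Its serum-free mean of 4.32 was near background. Skil, a SMAD corepressor, rose by 0.88 and 0.73. Smad7 was detected on 1 array and not tested.

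Pdgfa and Pdgfb probe 1 rose several-fold within 4 h of either TGF-beta family ligand, and both receptor probes stayed at background. Pdgfb probe 2, close to background, changed by 0.31 with GDF11 and by 0.63 with TGFB1 on the log2 scale. Of the 6 member probes, the 4 ligand probes passed the detection filter (detected on at least 4 of 12 arrays) and were tested. With GDF11, 3 of these 4 were called higher; of all tested probes, 8.6% were called, 4.51% higher and 4.09% lower. With TGFB1 all 4 were called higher; of all tested probes, 31.7% were called, 15.7% higher and 16% lower. With the brightness term the PDGF calls were 2 with GDF11 and 3 with TGFB1, and the calls over all probes went from 1091 to 1098 and from 4014 to 1699. A call is a Benjamini-Hochberg adjusted p under 0.05 over all 12680 tested probes in limma's moderated test.

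**Figure D1:**
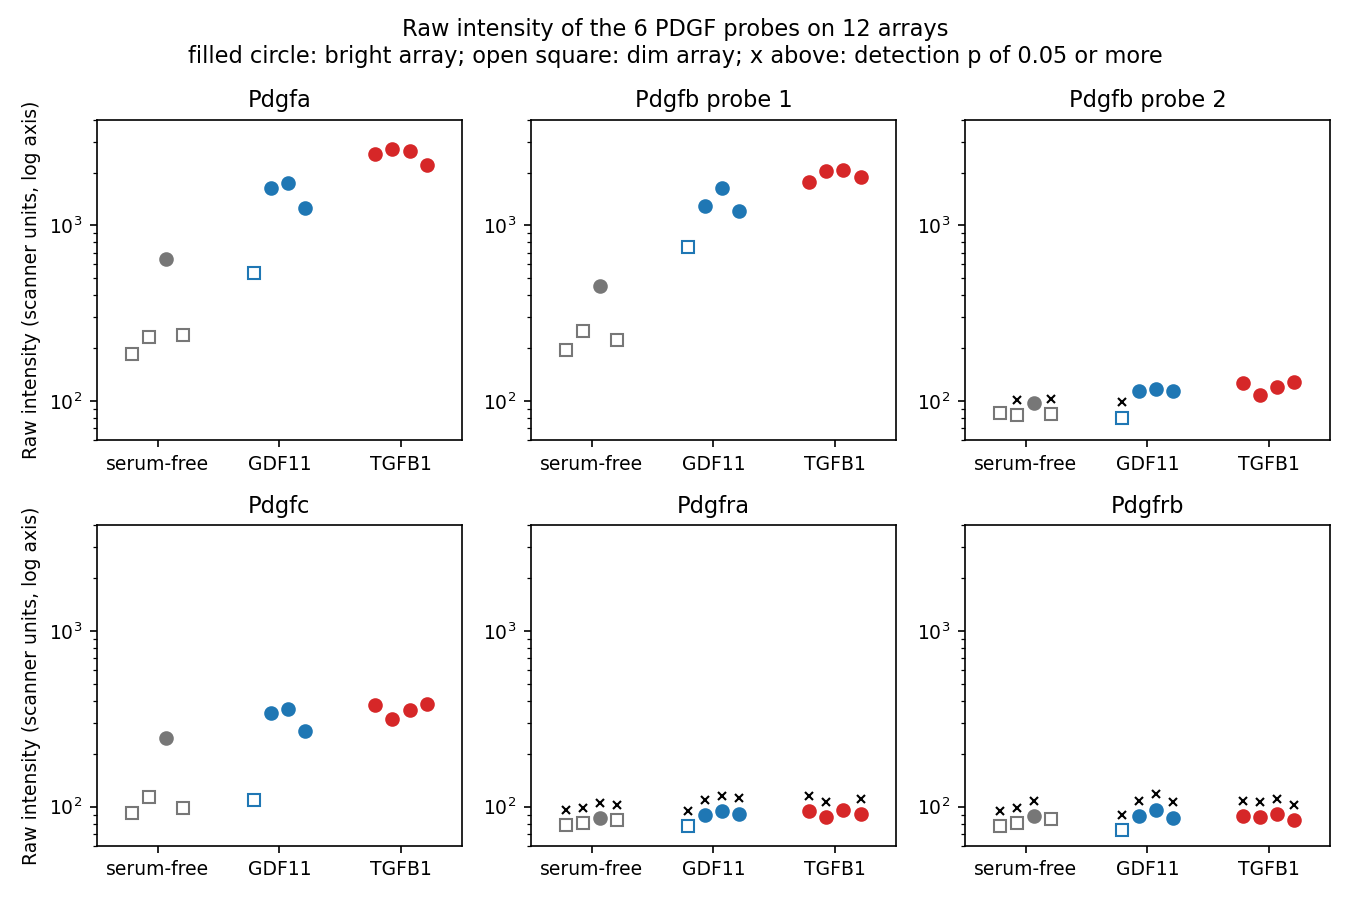
Raw intensity (scanner units, log axis) of each of the 6 PDGF probes on each of the 12 arrays, with groups along the x axis and replicates 1 to 4 from left to right within a group. Filled circles are bright arrays, open squares dim arrays, and a cross above a point marks a detection p of 0.05 or more. Pdgfa and Pdgfb probe 1 are higher in both ligand groups, Pdgfc separates more by dim and bright array, and Pdgfra and Pdgfrb lie between 73.7 and 96.2 throughout.

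Pdgfa (probe ILMN_2424721), the gene of the A chain, had raw intensities of 186, 232, 646 and 238 on serum-free replicates 1 to 4. With GDF11 they were 537, 1636, 1738 and 1259, and with TGFB1 2533, 2725, 2640 and 2202. The dim GDF11 replicate 1 lay below the bright serum-free replicate 3 in raw intensity, but among arrays of like brightness every ligand-treated array was above every serum-free array. On the normalized log2 scale the 3 groups did not overlap: levels were 8.02 to 8.77 in serum-free medium, 9.84 to 10.2 with GDF11 and 10.6 to 10.8 with TGFB1. Groups did not overlap in the higher direction for 5.18% of all tested probes with GDF11 and 15.2% with TGFB1. Pdgfa rose 3.33-fold with GDF11 (1.73 ± 0.15 on the log2 scale, SE, 4 arrays in each group, limma adjusted p = 1.17e-05). It rose 5.34-fold with TGFB1 (log2 change 2.42 ± 0.15, adjusted p = 1.59e-07). Ordered by log2 change from the top, the probe stood in place 26 of 12680 with GDF11 and place 23 with TGFB1.

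The Pdgfa level also moved with brightness, by 0.45 ± 0.12 from dim to bright arrays (log2, SE, adjusted p = 0.00653). With the brightness term the changes were 1.51 with GDF11 and 2.08 with TGFB1 (limma adjusted p = 1.84e-06 and 1.65e-07). Among the bright arrays, of which 1 was serum-free, they were 1.37 and 1.98 (adjusted p = 2.15e-05 and 8.01e-08). On dim arrays alone the single GDF11 array stood 1.65 above the mean of 3 serum-free arrays (95% interval 1.13 to 2.18, limma adjusted p = 0.106). In that fit limma called 0 of 12680 probes, with 1501 at an unadjusted p under 0.05, Pdgfa and Pdgfb probe 1 among them. TGFB1 has no dim array, so it was not compared there.

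Pdgfb, the gene of the B chain, had 2 probes. Probe 1 (ILMN_2618714) had raw intensities of 197, 251, 451 and 223 on serum-free replicates 1 to 4. They were 753, 1283, 1631 and 1204 with GDF11 and 1776, 2036, 2059 and 1898 with TGFB1. Every ligand-treated array was above every serum-free array even before normalization. Normalized levels were 8.14 to 8.37 in serum-free medium, 9.85 to 10.3 with GDF11 and 10.2 to 10.4 with TGFB1, so the control group was apart and the ligand groups overlapped. The dim GDF11 array, with the lowest raw intensity of its group, had the highest normalized level of it (10.3). Probe 1 rose 3.57-fold with GDF11 (log2 change 1.84 ± 0.13, SE, limma adjusted p = 7.79e-07) and 4.37-fold with TGFB1 (2.13 ± 0.13, adjusted p = 7.27e-08). It took place 23 of 12680 from the top with GDF11 and place 41 with TGFB1.

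Pdgfb probe 1 was not called for brightness (−0.23 ± 0.12 from dim to bright arrays, adjusted p = 0.124). Its GDF11 change was 1.95 once the term was added, 1.79 among bright arrays and 2.11 among dim arrays (limma adjusted p = 1.19e-07, 1.3e-06 and 0.0797). The TGFB1 change was 2.30 with the term and 2.18 on bright arrays alone (adjusted p = 6.56e-08 and 2.86e-08).

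Pdgfb probe 2 (ILMN_2726543) read the same gene close to background. Its raw intensities were 85.4, 83.8, 97.5 and 84.2 in serum-free medium, 80.7, 114, 118 and 114 with GDF11, and 126, 109, 120 and 128 with TGFB1. It was detected on 2 of 4 serum-free, 3 of 4 GDF11 and all 4 TGFB1 arrays. Its log2 change was 0.31 with GDF11 (95% interval −0.10 to 0.72, limma adjusted p = 0.302) and 0.63 ± 0.19 with TGFB1 (adjusted p = 0.0244). The TGFB1 call ended with the brightness term (0.39, adjusted p = 0.311), with all 25697 probes tested (adjusted p = 0.0549) and without 5 of the 12 arrays in turn (serum-free 2 or 4 or TGFB1 1, 3 or 4, adjusted p 0.053 to 0.0734). The GDF11 change passed without GDF11 1 (0.50, adjusted p = 0.0263).

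The fitted changes of the 2 Pdgfb probes were 1.84 and 0.31 with GDF11 and 2.13 and 0.63 with TGFB1. With the normalization offset raised to 50 they were 1.72 and 0.15, and 2.00 and 0.31. Within arrays, at offset 16, probe 1 stood above probe 2 by a mean log2 gap of 3.59 in serum-free medium. The gap was wider by 1.53 with GDF11 and by 1.49 with TGFB1. Each has p = 0.0286 by exact permutation of the arrays, the smallest p that the 70 splits allow. Probe 2 was near background, and the part of this in the wider gap was not tested. These values therefore do not show that the probes differ in the change of their targets. The array table holds no probe sequences or transcript names, so which Pdgfb transcripts each probe reads was not analysed here.

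Pdgfc (probe ILMN_2753912), the gene of the CUB-domain ligand, had raw intensities of 91.9, 113, 246 and 98.6 in serum-free medium. They were 109, 340, 362 and 271 with GDF11 and 378, 316, 355 and 384 with TGFB1. The dim GDF11 array lay among the dim serum-free arrays, and the bright ligand-treated arrays lay above the bright serum-free array. Normalized levels were 5.68 to 7.0, 6.51 to 7.64 and 7.36 to 7.82, so the GDF11 group overlapped the serum-free group and the TGFB1 group did not. Pdgfc rose 2.05-fold with GDF11 (1.03 ± 0.28 on the log2 scale, SE, 4 arrays in each group, limma adjusted p = 0.036) and 2.59-fold with TGFB1 (1.37 ± 0.28, adjusted p = 0.00308).

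The Pdgfc level also differed with brightness: in the model with the brightness term it was higher on bright arrays by 1.01 ± 0.17 (log2, SE, limma adjusted p = 0.000263), against ligand changes of 0.53 and 0.61 in the same model. Serum-free arrays stood at a mean of 6.00 when dim and at 7.0 on the bright array. The corresponding GDF11 levels were 6.51 and a mean of 7.54, and the bright TGFB1 arrays averaged 7.62. With the brightness term the GDF11 change was 0.53 (95% interval 0.17 to 0.88) and no longer passed (limma adjusted p = 0.0682). Among bright arrays it was 0.54 (adjusted p = 0.0776). Nor did it pass under median scaling (1.48, adjusted p = 0.216), with the authors' processed values (0.58, adjusted p = 0.0826), with all probes tested (adjusted p = 0.0965) or with only the 2 groups in the fit (adjusted p = 0.121). The call also ended without any 1 of 10 arrays, all but serum-free 3 and GDF11 1 (adjusted p 0.0501 to 0.114). The TGFB1 change was 0.61 with the term (adjusted p = 0.0484) and 0.62 on bright arrays alone (adjusted p = 0.0153). With the term and without serum-free 3 or GDF11 1 it did not pass (0.59 and 0.62, adjusted p = 0.225 and 0.142).

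**Figure D2:**
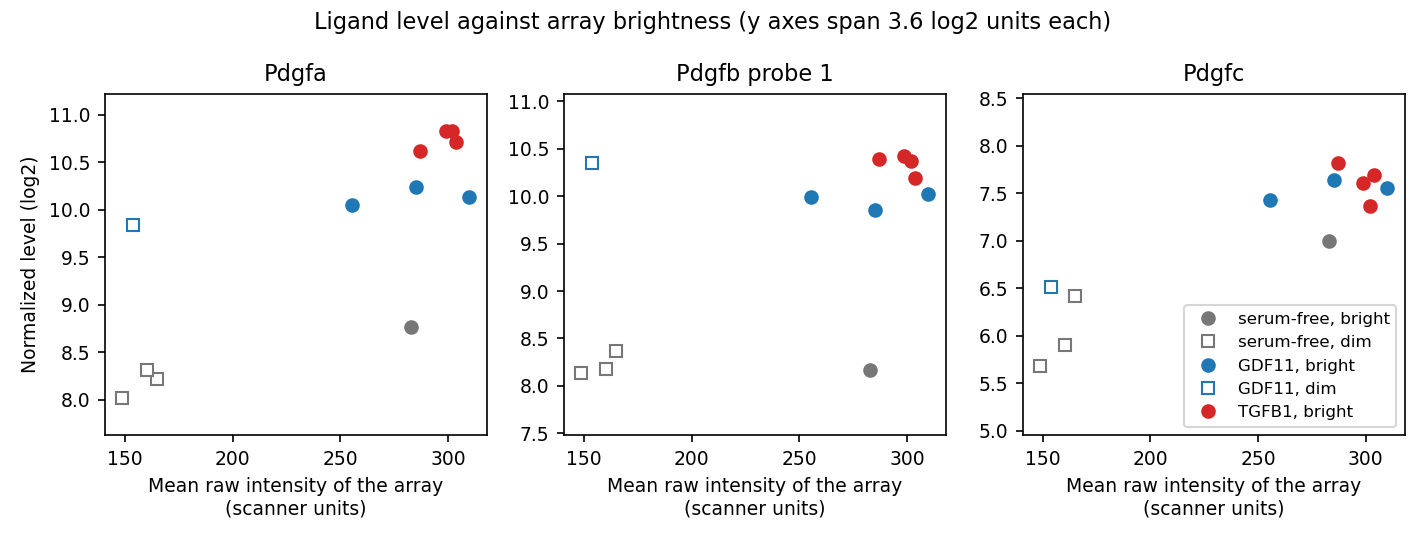
Normalized log2 level of Pdgfa, Pdgfb probe 1 and Pdgfc (y axis, each spanning the same number of log2 units) against the mean raw intensity of the array in scanner units (x axis), 1 point per array, coloured by group, with open squares for dim and filled circles for bright arrays. Pdgfb probe 1 lies at 8.17 on the bright serum-free array and at 8.14 to 8.37 on the dim ones, whereas Pdgfc lies at 7.0 on the bright serum-free array and at 5.68 to 6.42 on the dim ones.

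Promoter sequence is shown for Pdgfa and Pdgfc, the ligand genes with an entry in the RefSeq promoter table, because both were called with both ligands but differ in base composition. Each is the 250 bases before the most upstream start listed for the gene (RefSeq, GRCm38.p6), 5′ to 3′ on the gene's strand. Pdgfa is read from the minus strand at chr5:138994945-138995194 and Pdgfc from the plus strand at chr3:81036166-81036415. Capitals mark matches on either strand to the motifs searched.
Pdgfa: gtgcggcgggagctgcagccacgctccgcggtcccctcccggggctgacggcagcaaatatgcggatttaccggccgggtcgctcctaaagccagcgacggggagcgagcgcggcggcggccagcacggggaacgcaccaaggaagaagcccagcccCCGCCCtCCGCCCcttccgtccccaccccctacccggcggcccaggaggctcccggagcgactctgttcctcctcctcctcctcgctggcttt
Pdgfc: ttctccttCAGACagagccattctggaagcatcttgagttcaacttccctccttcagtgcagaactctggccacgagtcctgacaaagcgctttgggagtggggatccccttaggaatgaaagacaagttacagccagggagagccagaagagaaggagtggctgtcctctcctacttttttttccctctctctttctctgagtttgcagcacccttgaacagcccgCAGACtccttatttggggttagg

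The Pdgfa window was 72.4% G and C, the Pdgfc window 50.8%, and the median of all 32851 promoter windows of this length 52.4%. The Pdgfa window held 2 matches to the GC box GGGCGG, the letters bound by SP-family factors, and Pdgfc none; 32.7% of all windows held 1 or more. Pdgfc held 2 matches to the SMAD box CAGAC and Pdgfa none, where 42.2% of all windows held it. Neither window held the AP-1 motif TGANTCA (6.75% of windows), the EGR1 motif GCGNGGGCG (4.7%) or the TATA box TATAAA (12.4%). The letters of the EGR1 motif overlap those of the GC box. A match says only that the letters are present.

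The receptor genes were read by 1 probe each. Pdgfra (ILMN_1235932) had raw intensities of 78.7 to 86.4 in serum-free medium, 77.6 to 94.8 with GDF11 and 87.1 to 95.7 with TGFB1, and was detected on 1 of 12 arrays, TGFB1 replicate 3. Pdgfrb (ILMN_2903972) read 77.3 to 88.2, 73.7 to 96.2 and 84.1 to 91.0, and was detected on serum-free replicate 4 alone. In all 3 groups both probes were thus not above background, and neither passed the detection filter. When all 25697 probes were tested, Pdgfra changed by 0.00 with GDF11 (95% interval −0.21 to 0.22) and by 0.05 with TGFB1 (−0.16 to 0.27). Pdgfrb stood at −0.10 (−0.33 to 0.13) and −0.11 (−0.34 to 0.12), and no adjusted p was under 0.672 for GDF11 or 0.573 for TGFB1. These intervals describe background signal and set no bound on low receptor expression.

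TGFB1 was compared directly with GDF11, at doses that differed (50 against 250 ng/mL). Of the 4 tested ligand probes, 0 were called, where limma called 84 of 12680 probes (0.662%; 0.355% higher with TGFB1). At an unadjusted p under 0.05, 2 of the 4 stood out, Pdgfa and Pdgfb probe 1, as did 1016 of the 12680 tested probes. Pdgfa was 1.61-fold higher with TGFB1 (0.68 ± 0.15 on the log2 scale, SE, adjusted p = 0.0743), and the 4 TGFB1 arrays lay above the 4 GDF11 arrays, as they did for 4.85% of tested probes. This difference was called with the brightness term (0.57, adjusted p = 0.0109) and on bright arrays alone (0.61). It was also called with 5 other processing choices (adjusted p 0.0273 to 0.0442) and without serum-free 3 (adjusted p = 0.0188). It did not pass with a replicate block (adjusted p = 0.0667), under median scaling (1.04, adjusted p = 0.582) or with no detection filter (adjusted p = 0.101). Leaving out 1 array in turn took its limma adjusted p as high as 0.27. Pdgfb probe 1 stood 0.29 ± 0.13 higher with TGFB1 (adjusted p = 0.575), and 0.39 on bright arrays alone, where it was called (adjusted p = 0.0261). Pdgfb probe 2 and Pdgfc did not pass (0.32, 95% interval −0.09 to 0.74, and 0.34, −0.26 to 0.94). Both ligand comparisons share the serum-free arrays, so their log2 changes stand side by side only as values: 1.73 and 2.42 for Pdgfa, 1.84 and 2.13 for Pdgfb probe 1, and 1.03 and 1.37 for Pdgfc.

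**Figure D3:**
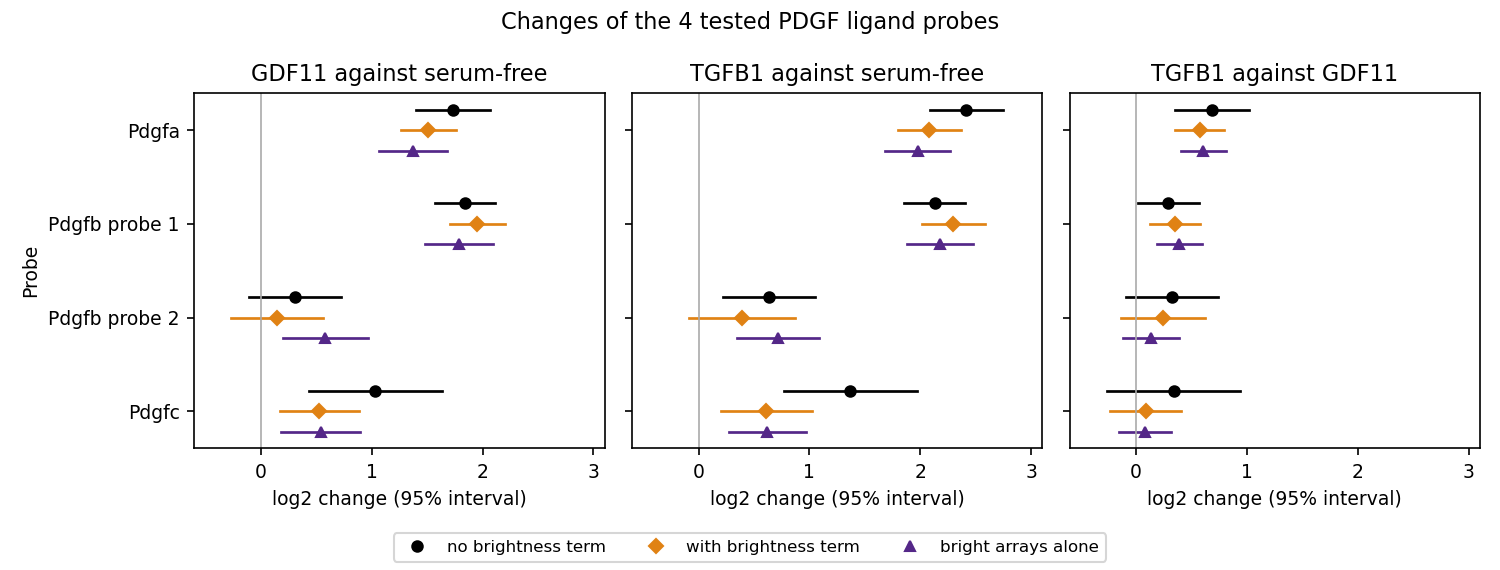
Log2 change (x axis) with its 95% interval for the 4 tested ligand probes (rows) in the 3 comparisons, without the brightness term (circles), with it (diamonds) and on bright arrays alone (triangles). Pdgfa and Pdgfb probe 1 lie well above 0 against serum-free medium in each setting, and Pdgfc moves from 1.03 to 0.53 with GDF11 and from 1.37 to 0.61 with TGFB1 when the term is added.

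**Figure D4:**
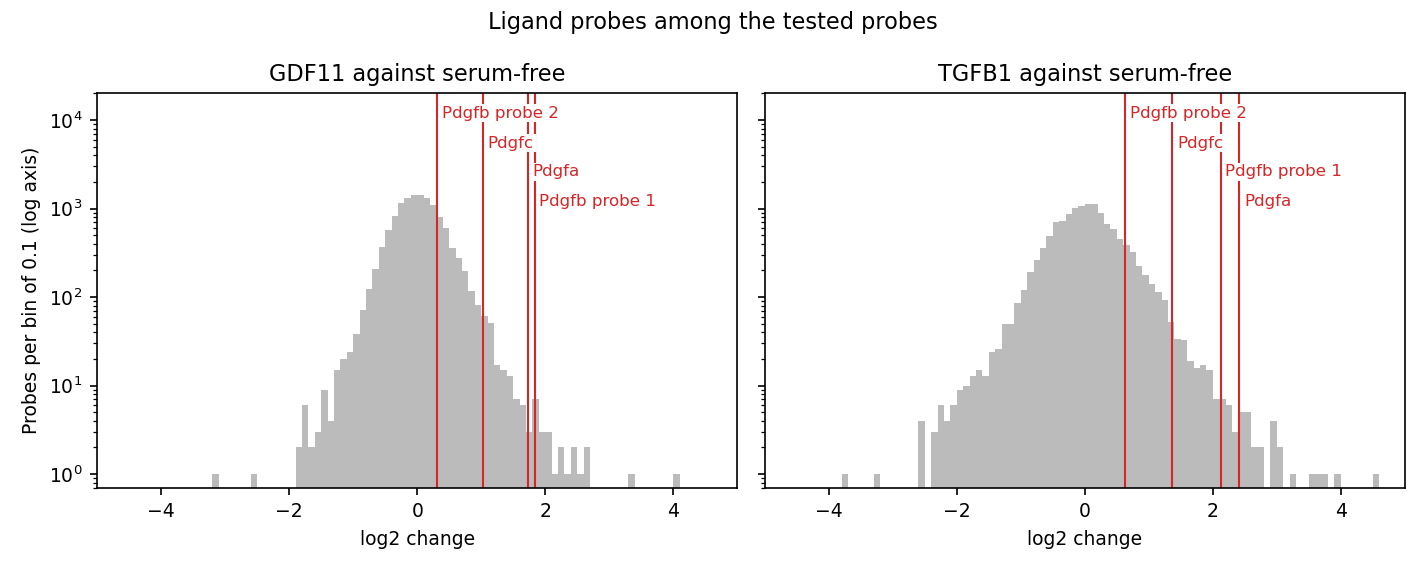
Number of tested probes (log axis) by log2 change in bins of 0.1, for GDF11 and for TGFB1 against serum-free medium, with the 4 ligand probes as vertical lines. Pdgfa and Pdgfb probe 1 lie in the right tail of both distributions, at 1.73 and 1.84 and at 2.42 and 2.13, while the medians of all probes are 0.01 and 0.02.

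Other genes of the pathway were read at the tested probe with the highest mean of each gene. Of 92 genes in 6 lists, 60 were tested. With GDF11 12 rose and 3 fell (25% called). Of all 9116 genes 9.44% were called, 4.54% higher and 4.9% lower. With TGFB1 14 rose and 6 fell (33.3% called), where 33.6% of all genes were called, 15.4% higher and 18.3% lower. With the brightness term 12 rose and 4 fell with GDF11, and 15 rose and 4 fell with TGFB1. Without it the median log2 change of the 60 was 0.08 and 0.17, against −0.02 and −0.01 over all genes. Egr2 and Il34, counted as called higher with each ligand, passed the detection filter only through the ligand groups. Between TGFB1 and GDF11 0 of the 60 were called by limma, where 0.812% of all genes were called, 0.439% higher with TGFB1. With the brightness term 1 was called, Fos, higher with TGFB1 (0.61, limma adjusted p = 0.0106). At an unadjusted p under 0.05 stood 6 of the 60 genes. Over all tested probes, a count not made by gene, 1016 of 12680 did.

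Among genes that act on the ligands outside or inside the cell, 0 of 4 tested binding proteins and co-receptors were called by limma with either ligand, and 0 stood at an unadjusted p under 0.05 (median log2 change 0.06 with GDF11 and 0.24 with TGFB1). These were Sparc, which binds the B chain, the co-receptor genes Nrp1 and Lrp1, and the receptor-like gene Pdgfrl. Pdgfd, the gene of the fourth ligand, was detected on 1 of 12 arrays and not tested. Of the proteases that process the ligands, 4 of 7 were tested and 1 was called. Furin, a convertase that cleaves the A and B chains, rose by 0.68 ± 0.14 with GDF11 (limma adjusted p = 0.0102) and by 0.76 ± 0.14 with TGFB1 (adjusted p = 0.00182). Its second tested probe gave 0.88 and 0.98. Plat, which activates PDGF-C, was near background, detected on 4 arrays, and stood at −0.24 and −0.17 (adjusted p = 0.46 and 0.544).

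Of 38 genes that carry the signal from the receptors, 27 were tested. With GDF11 3 rose and 2 fell, and with TGFB1 4 rose and 4 fell (median log2 change 0.05 and 0.08). Of all genes, 9.44% were called with GDF11 and 33.6% with TGFB1. With the brightness term 1 effector rose and 2 fell with GDF11, and 3 rose and 2 fell with TGFB1. Grb7, an adaptor, fell by 0.91 with GDF11 and by 1.49 with TGFB1 (limma adjusted p = 0.00241 and 1.27e-05). Stat5a, a transcription factor, fell by 0.66 and 0.65, though its second probe gave 0.14 and 0.34. Src, a kinase recruited to the receptors, rose by 0.76 with GDF11 and 0.75 with TGFB1 (adjusted p = 0.0238 and 0.0106), but neither change passed with the brightness term (0.53 and 0.39, adjusted p = 0.0684 and 0.221), and its second probe gave 0.21 and 0.09. Map2k1, the kinase MEK1, rose by 1.61 with TGFB1 (adjusted p = 0.000895; 1.01 with the term). Of 16 negative regulators 8 were tested and 2 rose with each ligand, or 3 with the brightness term (median without it 0.25 and 0.28). Of all genes, 4.54% were called higher with GDF11 and 15.4% with TGFB1. Cblb, a ubiquitin ligase, rose by 0.72 and 0.99, and Ptpn12, a tyrosine phosphatase, by 0.65 and 1.00, while its other 4 probes gave −0.06 to 0.63 and −0.04 to 0.71.

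Of 11 primary response genes, which growth factors such as PDGF induce within minutes to hours, 9 were tested. With each ligand 4 rose and 0 fell (median 0.42 with both), and with the brightness term 5 rose and 0 fell. Of all genes, 4.54% were called higher with GDF11 and 15.4% with TGFB1. Fos rose by 1.40 with GDF11 and 1.97 with TGFB1, Junb by 1.47 and 1.37, and Ier3 by 0.85 and 1.04 (log2 change, limma adjusted p 2.07e-07 to 0.000155). Egr2, not detected on any serum-free array, was at least 2.42-fold higher with GDF11 and at least 2.25-fold higher with TGFB1, its level being taken against the lowest detected signal of the arrays. Egr2 passed the detection filter only through the ligand groups, where it is high, so its call is no support for the rise. Egr1 stood at −0.15 and −0.31 (adjusted p = 0.476 and 0.0904). These genes also respond to many other signals, and whether PDGF acted on them was not tested.

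Of 15 genes of the related VEGF family and of the class III receptor kinases and their ligands, 8 were tested. With GDF11 2 rose and 1 fell, and with TGFB1 3 rose and 2 fell (median 0.03 and 0.13). Of all genes, 9.44% were called with GDF11 and 33.6% with TGFB1. With the brightness term 2 of the 8 rose and 2 fell with GDF11, and 3 rose and 2 fell with TGFB1. Csf1, the ligand of the CSF1 receptor, rose by 0.45 and 0.72 (limma adjusted p = 0.0366 and 0.000915; with the brightness term the GDF11 change was 0.37, adjusted p = 0.0717). Il34, another ligand of that receptor, was not detected on any serum-free array and was higher by at least 1.17-fold under GDF11 and at least 1.20-fold under TGFB1. It passed the detection filter only through the ligand groups, where it is high, so its call is no support for the rise. Vegfb fell by 0.57 and 0.85. Vegfa rose by 0.52 with TGFB1 (adjusted p = 0.00888), but stood at 0.33 with the term (adjusted p = 0.116), and its second probe gave −0.08. Kitl, the KIT ligand, fell by 2.57 with TGFB1 (adjusted p = 0.00443), or by 0.79 with the term (adjusted p = 0.000461), and was detected on 1 of 4 TGFB1 arrays. The receptor genes Csf1r and Flt3 were detected on 0 arrays, and Kdr and Flt4 on 2 and 3.

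**Figure D5:**
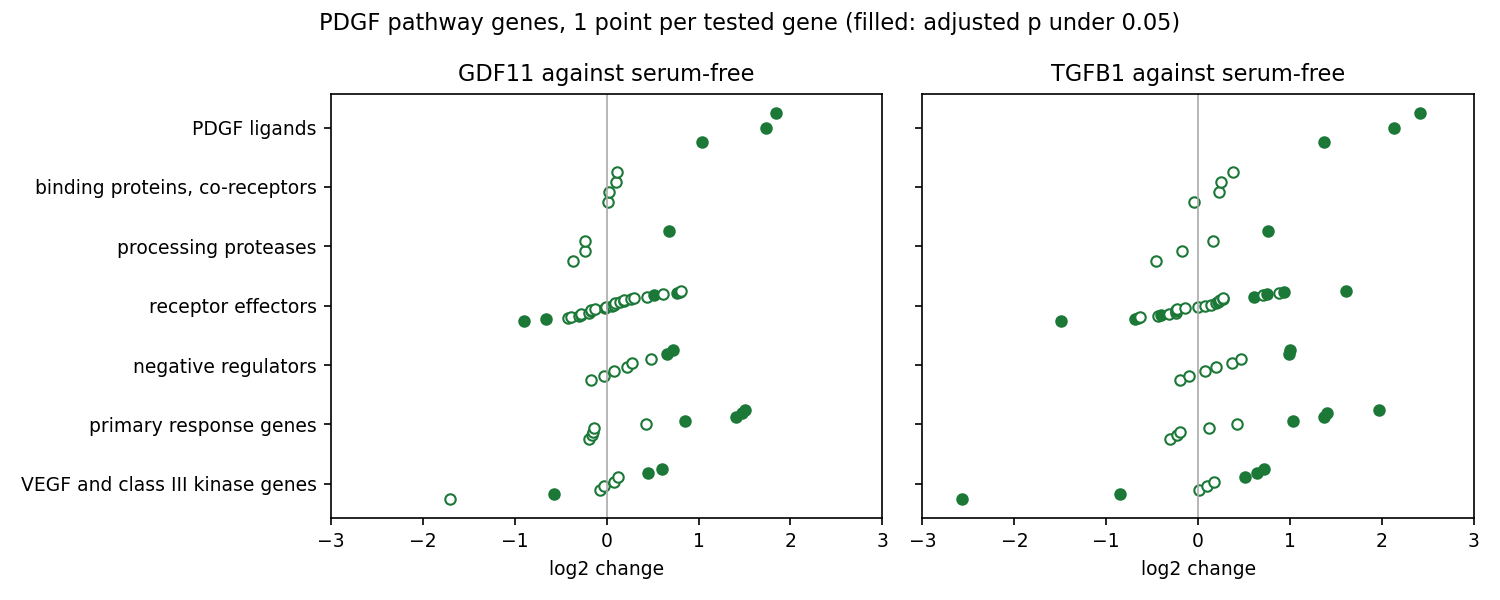
Log2 change against serum-free medium (x axis) for each tested gene of the PDGF pathway lists (rows, 1 point per gene, ordered by value within a row), with GDF11 on the left and TGFB1 on the right. Filled points have an adjusted p under 0.05. The 3 ligand genes are all filled and lie at 1.03 to 1.84 with GDF11 and at 1.37 to 2.42 with TGFB1, and most receptor effectors are open points around 0.

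Among all 9116 genes, those whose normalized log2 level followed each ligand gene most closely over the 12 arrays were found by Pearson correlation. These values describe a common pattern that groups and brightness both shape, over arrays that share their serum-free controls. For Pdgfa they were Tgm2 (r = 0.995), Clic4 (0.993), Bhlhe40 (0.992), Acvr1 (0.992) and Plek2 (0.989). For Pdgfb they were Spsb1 (0.991), Ier3 (0.990), Gadd45a (0.990), Dyrk3 (0.986) and Dusp2 (0.985). For Pdgfc they were Adgre5 (0.977), Ube2g1 (0.976), Ahnak (0.975), Adam9 (0.975) and Gosr2 (0.975). No gene stood in more than 1 of these lists of 5. Among the ligands themselves, Pdgfa and Pdgfb probe 1 had r = 0.954, Pdgfa and Pdgfc 0.887, and Pdgfb probe 1 and Pdgfc 0.775 over the 12 arrays.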

How the data were processed

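RNA of 12 spheroid samples was measured on 1-colour Illumina arrays. Per the file headers, the deposited raw table gives each probe's intensity and its bead standard error in linear scanner units, a detection p-value and, as another quantity, how many beads were read. The authors' second deposited table holds processed values that range like log2 values. The submitters' processing notes name lumi; what it did, and the log base, is not given in the sources used here. Table columns carry the sample names.

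Intensities were background-corrected and quantile-normalized on the log2 scale with limma 3.58.1 in R 4.3.3 (neqc, offset 16, background from detection p-values). Tests covered the 12680 of 25697 probes that were detected (p under 0.05) on 4 or more of the 12 arrays. One limma model with the 3 group means used all 12 arrays, with Benjamini-Hochberg adjustment over all tested probes and calls at an adjusted p under 0.05. On simulated data for GDF11 against serum-free medium (12680 probes), 26% of probes changed by 0.5 on the log2 scale, 92% of those changed by 1 and 98% of those changed by 2 were called. PDGF probes were read by 27 to 59 beads per array, and the number of arrays limits the precision.

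Symbols were updated through RefSeq (GRCm38.p6, names only): of 18138, 14307 were current, 2906 matched 1 synonym and 904 were kept. A pathway gene was read at its tested probe with the highest mean. Named genes were all member probes, the stimulus genes, up to 4 called genes with the smallest p per list and comparison, and the 5 genes most correlated with each ligand gene. Of the genes this rule names, 2 are not reported here. Binding proteins, Plat, Pdgfd, Egr1, markers and undetected receptor genes were named after their values were seen, as were the TGFB1 values of Src and Il34. The members and lists were chosen with earlier results of these data known. Arrays were split into dim and bright where the gap between neighbouring mean raw intensities was widest. Replicate numbers were not used as pairs, since they are not stated to pair samples. Deviations of same-numbered arrays correlated from −0.31 to 0.59, which does not settle whether they are paired. The alternatives were a replicate block, other background corrections and normalizations, the authors' values, no detection filter, the brightness term, subsets of arrays, and each array left out in turn.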

Additional observations from a re-analysis of the deposited data

Results flagged for a closer look

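In 3 of the 18 sets of 4 arrays examined (6 probes in 3 groups), 1 array lay far from the others by Dixon's ratio. The critical value is set for about 1 in 20 among independent normal values. These sets share arrays and some lie at background, so their count cannot be set against that rate. All 3 flagged sets are in the serum-free group. Pdgfb probe 1 stood at a normalized log2 level of 8.37 on serum-free replicate 2, against 8.14 to 8.18 on the others, and every ligand-treated array was above it. Its ratio of 0.83 is barely past the critical value of 0.829. Pdgfra stood at 4.56 on serum-free replicate 4, against 4.18 to 4.22 on the others, and Pdgfrb at 4.69 on the same array, against 4.17 to 4.23. Both receptor signals are at background level, with 83.9 and 84.7 scanner units.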

How the results depend on the processing

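The rises of Pdgfa and Pdgfb probe 1 with both ligands kept direction and call in every alternative but the fit to dim arrays alone. Fits to dim arrays alone, and with the brightness term less 1 array, were chosen after seeing the data. Replicate numbers are not stated to pair the arrays, and 4 of 12 arrays correlate best with their own number. With a replicate block, 52 probes rather than 84 were called for TGFB1 against GDF11 and no PDGF call changed. The cause of the changes below was not tested.

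GDF11 against serum-free medium. The call of Pdgfc ended under median scaling (1.48), with the authors' values (0.58), with no filter or only 2 groups (1.03 each), with the brightness term (0.53, also less serum-free 3, 0.51, or GDF11 1, 0.54), and on bright (0.54) or dim arrays alone (0.51). Called probes, 1091 in all, became 279 under median scaling (252 higher, 27 lower, median of all probes 0.34), 411 with 2 groups, 687 on bright arrays and 351 with the term less GDF11 1. On dim arrays alone limma called 0 probes and 0 PDGF probes (1501 and 2 at an unadjusted p under 0.05), with Pdgfa at 1.65, Pdgfb probe 1 at 2.11 and probe 2 turned to −0.29, as also with the term less serum-free 3.

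TGFB1 against serum-free medium. Called probes, 4014 in all, became 1699 with the term, 1869 on bright arrays, and 1452 or 1079 with the term less serum-free 3 or GDF11 1, when 2 PDGF probes were called. Pdgfb probe 2 lost its call with no filter (0.63) and with the term (0.39; less serum-free 3, −0.15; less GDF11 1, 0.71), and Pdgfc with the term less these arrays (0.59 and 0.62).

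TGFB1 against GDF11. Called probes became 42 under median scaling (41 higher, 1 lower, median 0.26), 154 with cyclic loess, 254 with the term (250 less serum-free 3 or GDF11 1) and 670 on bright arrays. Pdgfa was called, as 1 PDGF probe, with no background correction (0.65), offset 50 (0.66), cyclic loess (0.70), the authors' values (0.67), the term (0.57; less either array 0.61) and only 2 groups (0.68). It stayed uncalled with a replicate block (0.68), under median scaling (1.04) and with no filter (0.68). On bright arrays 2 were called, Pdgfa (0.61) and Pdgfb probe 1 (0.39).

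Leaving out each array in turn gave, for GDF11, 515 to 4232 called probes (most without GDF11 1), 2 to 4 PDGF probes, and log2 changes of 1.63 to 1.88 for Pdgfa, 1.74 to 1.90 for Pdgfb probe 1, 0.18 to 0.50 for probe 2 and 0.84 to 1.29 for Pdgfc. For TGFB1 it gave 2570 to 5821 (most without serum-free 3), 3 to 4, 2.31 to 2.56, 2.10 to 2.18, 0.56 to 0.75 and 1.18 to 1.62. Between the ligands it gave 22 to 113, 0 to 1 (Pdgfa, without serum-free 3), 0.61 to 0.74, 0.22 to 0.39, 0.13 to 0.45 and 0.08 to 0.46.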
